A study of Mus musculus with 16 samples.

Results

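The genes described here are 10 genes of simple epithelium: the keratins Krt8, Krt18, Krt19 and Krt7, the adhesion molecules Epcam and Cdh1, the claudins Cldn3, Cldn4 and Cldn7, and the transcription factor Ehf. They were taken by symbol from a table of 25054 genes, and all 10 were in it. RNA was sequenced from 16 mouse osteosarcomas, 8 labeled KO and 8 labeled WT for Arid1a, a subunit of the SWI/SNF chromatin remodeling complex. The KO mice were OsxCreERT2+/-;p53fl/fl;Rb1fl/fl;Arid1afl/fl, and the WT mice were OsxCreERT2+/-;p53fl/fl;Rb1fl/fl, so both groups carried floxed p53 and Rb1. All mice, male and female, had received tamoxifen (400 ug/g) when 1 month old and were past 6 months when sampled. The Cre was driven from Osterix, a gene of bone-forming cells, so the deletions were directed to that lineage and not to epithelium. The 8 KO tumors have 8 different names (Massa, Medusa, Montana, Ohio, Prince, Grilka, Zelda and Oregon), which were taken as 8 mice, and their labels give no body site. The 8 WT tumors have 4 animal codes. N42 gave 4 of them and N43 gave 2, while N215 and N25 gave 1 each, that of N25 being labeled as lung. The study describes no metastasis in WT mice, so whether the N25 sample is a tumor of the lung, another tumor or lung tissue is not settled by its label.

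Keratins 8 and 18 pair into the intermediate filaments of simple epithelia, with keratin 7 (type II) and keratin 19 (type I) added in ducts, airways and other lining epithelia. EpCAM and E-cadherin (Cdh1) hold epithelial cells to each other, claudins form the tight junctions that seal the space between them, and Ehf is an ETS family factor found in glandular and airway epithelium. Bone-forming cells are mesenchymal, where Cdh1 and several of the others are held low by repressors of the Zeb and Snail families. These bind the E-box CACCTG, which reads from the opposite strand as CAGGTG. In bulk tissue a change in the number of epithelial cells and a change in the RNA per cell cannot be told apart.

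The promoter sequences are shown because members that rise together in a tumor can be compared for a shared E-box. The 250 bases before each annotated start were read from RefSeq for GRCm38.p6, and 7 of the 10 members were matched, with 8 starts in all. Krt19, Cdh1 and Ehf were not matched. The E-box was present before at least 1 start in 6 of the 7 matched members and in 6 of the 8 windows. Of 32851 windows of the same length before the starts of all genes, 17.2% held it. A match describes the letters only. Epcam, Cldn4 and Cldn3 are printed whole, since Epcam held 2 E-boxes, Cldn4 had 1 close to its start, and Cldn3, its neighbor, had none. Each sequence runs 5′ to 3′ along the strand of its gene, with the E-box in capitals.

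Epcam, chr17:87635729-87635978, plus strand: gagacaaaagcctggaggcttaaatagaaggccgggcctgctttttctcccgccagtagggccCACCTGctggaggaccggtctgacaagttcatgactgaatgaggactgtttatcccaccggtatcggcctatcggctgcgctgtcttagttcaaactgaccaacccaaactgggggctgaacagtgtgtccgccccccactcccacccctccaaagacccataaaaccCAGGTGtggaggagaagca
Cldn4, chr5:134946935-134947184, minus strand: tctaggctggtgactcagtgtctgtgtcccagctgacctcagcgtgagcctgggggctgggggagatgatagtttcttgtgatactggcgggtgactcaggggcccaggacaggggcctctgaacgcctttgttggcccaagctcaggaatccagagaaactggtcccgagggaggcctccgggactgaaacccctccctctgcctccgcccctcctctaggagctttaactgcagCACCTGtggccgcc
Cldn3, chr5:134985964-134986213, plus strand: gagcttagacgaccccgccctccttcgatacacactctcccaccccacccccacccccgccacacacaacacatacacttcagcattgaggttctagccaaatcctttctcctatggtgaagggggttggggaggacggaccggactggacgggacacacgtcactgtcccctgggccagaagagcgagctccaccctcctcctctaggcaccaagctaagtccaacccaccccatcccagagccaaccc

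For Krt18, a keratin that was high in the same tumors, 30 bases around the E-box are shown.

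Krt18, chr15:102027990-102028019, plus strand: aggggctaacacCACCTGctatcctttgtg

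In Epcam the E-boxes began 187 and 19 bases before the start, in Cldn4 14 bases before and in Krt18 214 bases before. Whether any factor bound these sites was not measured.

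Depth and tissue content differed between the libraries. KO tumors had 1109487 to 15059640 counts and WT tumors 7806160 to 16962329, so that 1 count is worth 2.23 CPM (counts scaled to the TMM-normalized library size) in Massa and 1.34 in Grilka, and 0.0486 to 0.113 CPM in WT tumors. Counts over the whole Arid1a gene did not separate the groups (107 to 270 CPM in KO, 125 to 236 in WT, log2 fold change 0.16, SE 0.22, edgeR adjusted p = 0.715), and such a count cannot check a deletion of single exons. A salivary gland list of 17 genes summed to 143433 CPM in Prince and to at most 635 CPM elsewhere, and a lung list of 15 genes to 30647 CPM in N25 lung, 14355 CPM in Massa and at most 79.4 CPM elsewhere. These 3 libraries stand apart, and the comparisons of KO with WT below are given with and without them.

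All 10 genes had their 3 highest levels in the same 3 tumors: Prince (KO), Massa (KO) and N25 lung (WT). Of all genes in the table, 2.12% had these 3 above the other 13 tumors. Prince was highest for 7 genes (Krt8, Krt18, Epcam, Cldn3, Cldn4, Cldn7 and Ehf), Massa for 2 (Krt19 and Krt7) and N25 lung for 1 (Cdh1). The summed level of the 10 genes was 2439 CPM in Prince, 988 CPM in Massa and 983 CPM in N25 lung. In the other 13 tumors it ran from 2.53 CPM in Medusa to 34.8 CPM in N215, with a median of 6.38 CPM. The lowest of the 3 high tumors was thus 28.2 times the highest of the 13. As a share of all counts in the library, without normalization, the 10 genes took 0.195% in Prince, 0.130% in N25 lung, 0.0399% in Massa and at most 0.00393% elsewhere. Massa rests on 443 counts on the 10 genes, against 29379 in Prince and 15229 in N25 lung.

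**Figure D1:**
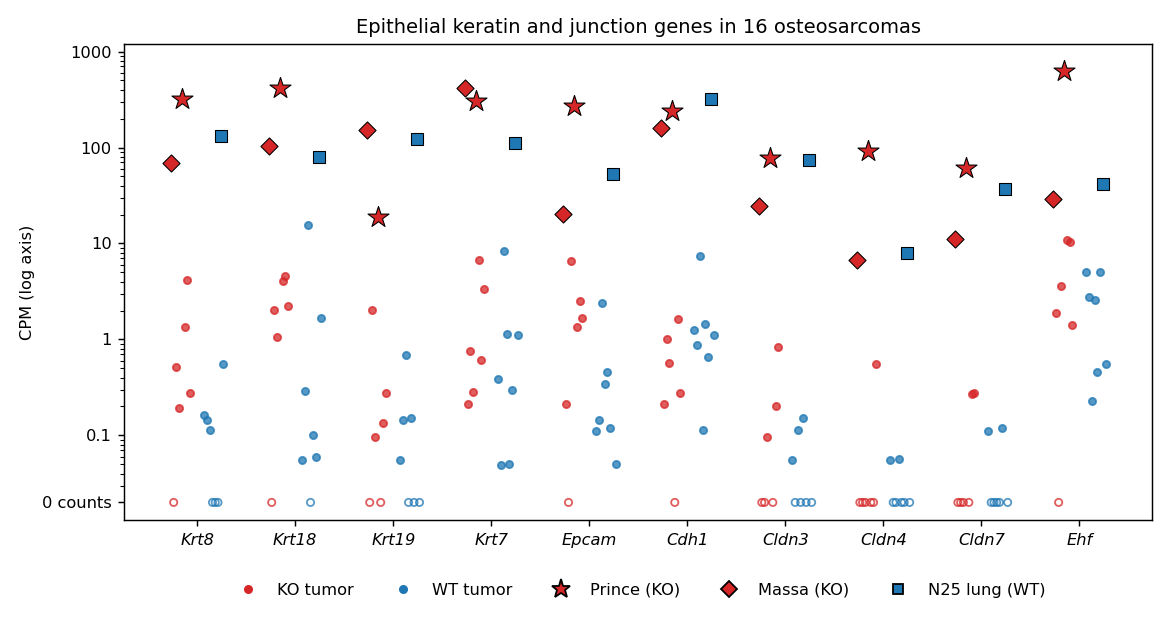
Level of each of the 10 genes in CPM on a log axis, 1 point per tumor, KO in red and WT in blue. Open circles mark tumors with no count. Prince, Massa and N25 lung are the 3 highest points in every column, and the remaining KO and WT tumors overlap below them.

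Of the keratins, Krt8 (chr15:101996698-102004482) ranged in KO tumors from 0 to 317 CPM with a median of 0.926, and in WT tumors from 0 to 132 CPM with a median of 0.130. Its partner Krt18 (chr15:102028180-102032027) ranged from 0 to 421 CPM in KO (median 3.13) and from 0 to 79.1 CPM in WT (median 0.196). Their genes lie 23.7 kb apart. The pair was high in Prince, N25 lung and Massa, and the KO and WT groups overlapped. Outside those 3, the highest Krt8 was 4.14 CPM in Zelda, followed by 1.34 CPM, 1 count, in Grilka, both KO and above the other WT tumors (at most 0.552 CPM), and the highest Krt18 was 15.5 CPM in N215, a WT hind limb tumor.

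Krt7 (chr15:101411043-101430313), a keratin of ducts and airways, ranged from 0.211 to 415 CPM in KO (median 2.06) and from 0.0486 to 113 CPM in WT (median 0.744). Krt19 (chr11:100140810-100148665) ranged from 0 to 152 CPM in KO (median 0.208) and from 0 to 124 CPM in WT (median 0.10). Both were highest in Massa, and the groups overlapped. Krt19 was the member on which Prince was nearest to the other 13, at 18.8 CPM against 2.04 CPM in Montana, the highest of those.

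The make-up of the keratin counts differed among the tumors. Krt7 and Krt19 together made 76.7% of the counts on the 4 keratins in Massa (95% exact binomial interval 71.8 to 81.2), 52.9% in N25 lung (51.7 to 54.1) and 30.8% in Prince (29.97 to 31.6). In Zelda they made 7.91% (4.02 to 13.7), and Krt8 and Krt18 held the rest. The intervals of these 4 tumors do not overlap. Those of N215 at 36.4% (29.999 to 43.2) and N43 pelvis at 33.3% (22.2 to 46.0) overlap that of Prince. All cover counting error within single libraries only. The shares are of raw counts and are not scaled to exon length, 7.05 kb for Krt7 and 1.44 to 1.96 kb for the other keratins. Per kb, Krt7 in Massa was below Krt19 and Krt18 (58.9 against 81.8 and 71.4 CPM per kb). N215 had 137 counts of Krt18 and 1 of Krt8, so Krt8 was 0.725% of the pair (0.0183 to 3.97), against 42.97% in Prince (41.9 to 44.0), 62.5% in N25 lung (60.8 to 64.1), 40.3% in Massa (29.2 to 52.1) and 47.7% in Zelda (38.8 to 56.7). N215 was therefore the tumor with Krt18 but nearly no Krt8.

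Among the adhesion genes, Epcam (chr17:87635979-87651129) ranged from 0 to 272 CPM in KO (median 2.09) and from 0.0501 to 53.5 CPM in WT (median 0.243). Its level in Prince was followed by N25 lung and, at 20.1 CPM from 9 counts, by Massa. The highest of the other 13 was Ohio, a KO tumor, with 6.58 CPM. In Ohio, 69 of the 131 counts on the 10 genes were on Epcam, 52.7% (43.8 to 61.5), against 11.1% in Prince (10.8 to 11.5).

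Cdh1 (chr8:106603351-106670246), which encodes E-cadherin, ranged from 0 to 238 CPM in KO (median 0.796) and from 0.114 to 322 CPM in WT (median 1.18). It was the gene that peaked in N25 lung, with Prince at 238 CPM and Massa at 158 CPM. Outside the 3 high tumors it reached 7.49 CPM in N215 and no more than 1.63 CPM in a KO tumor. Cdh1 made 32.8% of the counts on the 10 genes in N25 lung (32.0 to 33.5), 16.03% in Massa (12.7 to 19.8) and 9.75% in Prince (9.41 to 10.1).

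The claudins had few counts outside the 3 high tumors. Cldn3 (chr5:134986214-134987472) and Cldn4 (chr5:134945119-134946934) are neighbors, 39.3 kb apart. Cldn3 ranged from 0 to 78.4 CPM in KO (median 0.149) and from 0 to 73.3 CPM in WT (median 0.0275). Cldn4 ranged from 0 to 93.0 CPM in KO and from 0 to 8.004 CPM in WT, with a median of 0 in each group. Both were highest in Prince, but N25 lung was near Prince for Cldn3 and far below it for Cldn4. Cldn4 made 40.04% of the counts on the 3 claudins in Prince (38.2 to 41.9) and 6.79% in N25 lung (5.68 to 8.05). Cldn7 (chr11:69964779-69967885) ranged from 0 to 60.9 CPM in KO (median 0.136) and from 0 to 36.5 CPM in WT (median 0). In the other 13 tumors together there were 12 counts of Cldn3, 4 of Cldn4 and 9 of Cldn7. At this depth, 3 counts correspond to 6.69 CPM in Massa, where Cldn4 had 3 counts and Cldn7 5, so that Massa's place in the order of these claudins is loosely set.

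Ehf (chr2:103263433-103303278) ranged from 0 to 631 CPM in KO (median 7.04) and from 0.227 to 41.8 CPM in WT (median 2.66). Prince was 15.1 times N25 lung for Ehf and 11.6 times for Cldn4, while for Krt19 it was 0.152 times N25 lung. Ehf was the member with the smallest share of its CPM in the 3 high tumors, 94.0%, and Cldn4 the one with the largest, 99.4%. The highest of the other 13 were Grilka with 10.7 CPM, from 8 counts, and Zelda with 10.4 CPM. Ehf also led the sparse counts of several other tumors of both groups. Among WT tumors it was 80.4% of the counts on the 10 genes in the N42 left shoulder tumor (86 of 107, interval 71.6 to 87.4), 68.9% in N43 spine (60.3 to 76.7), 62.6% in N42 right pelvis (51.9 to 72.6) and 60.8% in N42 right femur (48.8 to 72.0). In Prince it was 25.9% (25.4 to 26.4) and in N25 lung 4.25% (3.93 to 4.58). Krt7 was 1.10% to 5.30% of the counts in the first 3 of these but 27.0% (17.4 to 38.6) in N42 right femur. Ehf also led in the KO tumors Zelda (42.7%, interval 37.5 to 47.9), Medusa (9 of 12 counts) and Grilka (8 of 18 counts), so its lead in counts was seen in both genotypes. These shares are of raw counts and are not scaled to exon length, 5.58 kb for Ehf and 1.44 kb for Krt18. Per kb, Krt18 was above Ehf in Zelda (3.16 against 1.87 CPM per kb) and in Grilka (2.80 against 1.93, from 3 and 8 counts). Ehf still led per kb in Medusa and in the WT tumors named above.

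**Figure D2:**
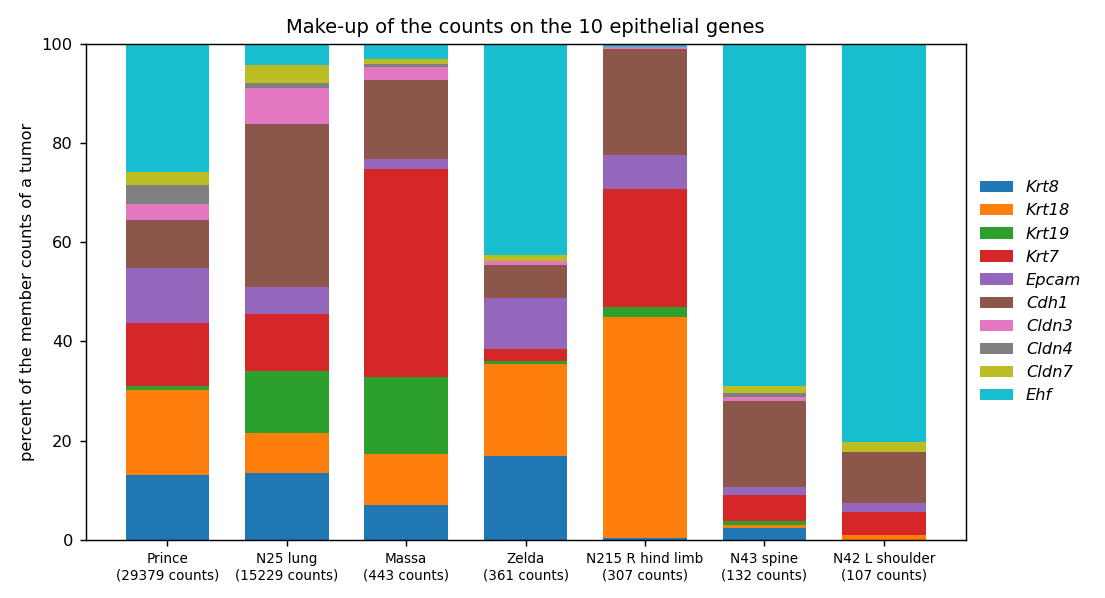
Percent of the counts on the 10 genes that fell on each gene, in 7 tumors, with the number of counts under each bar. Prince has a large share of Ehf and little Krt19, N25 lung is led by Cdh1, Massa by Krt7, N215 by Krt18, and N43 spine and N42 left shoulder by Ehf. The bars of the right-hand tumors rest on few counts. Shares are not scaled to gene length. Per kb, Krt18 led in Prince (293 CPM per kb, against 113 for Ehf) and Krt19 in Massa (81.8, against 58.9 for Krt7).

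Lists of genes of other tissues were high in different tumors: the salivary gland list in Prince, the lung list in N25 lung and Massa, and the liver list in Zelda. All 17 salivary gland genes in the table had over 3 counts in Prince. The list summed to 17.9 to 143433 CPM in KO and to 14.6 to 111 CPM in WT. Egf, made in the ducts of the mouse submandibular gland, was at 92848 CPM in Prince, 6.69 in Massa and 1.74 in N25 lung. In the other 13 it ran from 2.43 to 339 CPM, highest in the KO tumors Oregon (339), Grilka (329) and Montana (75.8). Of the 17 genes, 1 was over 3 counts in Massa, 8 were in N25 lung and 4 to 9 (Oregon) were in the other 13.

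The lung list showed the converse. It summed to 3.36 to 14355 CPM in KO and to 13.6 to 30647 CPM in WT, with 15 of 15 genes over 3 counts in N25 lung, 14 in Massa and 5 in Prince. Scgb1a1, the secretory protein of airway club cells, was at 19714 CPM in N25 lung, 4129 CPM in Massa and 0 in Prince. Sftpc, the surfactant protein of alveolar type II cells, was at 2411, 3212 and 0 CPM in the same order. All 15 liver genes had over 3 counts in Zelda, where they summed to 1941 CPM, led by Alb at 876 CPM, while the list was at 26.8 CPM in Massa and at most 5.64 CPM in any other tumor. Zelda was also the highest of the 13 tumors for Krt8, which with Krt18 makes the keratin filaments of hepatocytes. The part of these tissues in the members' levels was not tested.

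The remaining lists were lower or high in other tumors. A mesothelial list of 8 genes, 1 of which is the member Krt19, summed to 380 CPM in N25 lung, 239 CPM in Massa and 1.00 to 21.5 CPM elsewhere. A keratinocyte list of 9 genes was highest in Prince at 166 CPM, and 3 mammary genes reached at most 35.6 CPM. In a kidney list of 7 genes, Lrp2 alone was at 115 CPM in N25 lung and 64.7 CPM in Massa, and Aqp2, its next most abundant gene, was at 0.258 and 0 CPM there. Skeletal muscle genes summed to 157695 CPM in Oregon and 105115 CPM in Montana, tumors in which the 10 epithelial genes summed to 11.2 and 6.38 CPM. The osteoblast list of 13 genes, led by Col1a1, summed to 855 CPM in Prince, the lowest of all, 3792 CPM in Massa, 3540 CPM in N25 lung and 2861 to 94490 CPM in the other 13. Of its 13 genes 9 were over 3 counts in Prince, 8 in Massa and 12 in N25 lung.

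**Figure D3:**
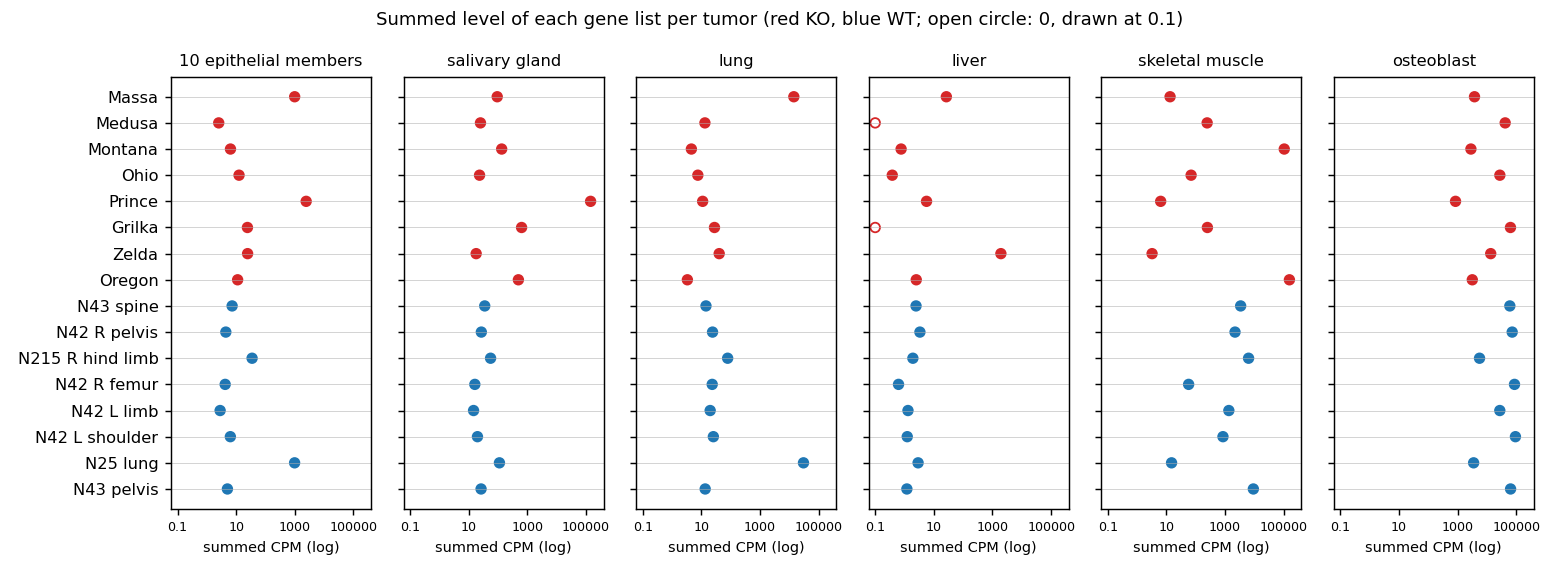
Summed CPM of each gene list in each tumor, on log axes, KO in red and WT in blue. The epithelial sum is high in Prince, Massa and N25 lung. The salivary sum is high in Prince, the lung sum in Massa and N25 lung, the liver sum in Zelda, and the muscle sum in Montana and Oregon.

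The comparison of KO with WT asks whether these genes differ with Arid1a genotype. Of the 10 genes, 4 passed the filter on low counts (Krt18, Krt7, Cdh1 and Ehf) and 6 did not (Krt8, Krt19, Epcam, Cldn3, Cldn4 and Cldn7). With edgeR's quasi-likelihood test, 0 of the 4 were past an adjusted p of 0.05, where 618 of 15413 genes tested, 4.01%, were (1.86% as higher in KO). At an unadjusted p under 0.05 the count was 1, Ehf, where 23.0% of all genes were. In none of the 10 genes were the KO and WT tumors separate, as they were in 0.383% of all genes in the table.

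For Krt18 the log2 fold change, KO over WT, was 2.48 (SE 1.68, adjusted p = 0.397). For Krt7 it was 2.54 (SE 1.73, adjusted p = 0.399). For Cdh1 it was 0.23 (SE 1.66, adjusted p = 0.954), and for Ehf 3.57 (SE 1.46, adjusted p = 0.156). All 4 estimates were above 0, with standard errors of over 1.4 log2 units, and the median over all genes tested was 0.10, with 55.9% of genes above 0. When all genes were tested without the filter, the other 6 had log2 fold changes from 0.20 (Krt19) to 3.63 (Cldn4), and 0 of the 10 passed. The p-values treat the tumors of 1 mouse as separate samples. With counts summed per mouse, 7 of the 10 genes were tested and 0 passed.

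The estimates turned on the 3 high tumors. Without N25 lung, Krt18 was at 4.79 (SE 1.81, adjusted p = 0.112), Krt7 at 5.87 (SE 1.83, adjusted p = 0.0647), Cdh1 at 4.77 (SE 1.59, adjusted p = 0.0793) and Ehf at 5.18 (SE 1.53, adjusted p = 0.0549) in edgeR, and all 4 had an unadjusted p under 0.05, as did 25.1% of all genes in that fit. Without Prince, Krt18 was at 0.21, Krt7 at 1.87, Cdh1 at −1.12 and Ehf at −0.04. Without Prince, Massa and N25 lung, 3 of the 10 genes were tested: Krt18 at −0.15 (SE 1.33), Cdh1 at −1.26 (SE 0.81) and Ehf at 0.89 (SE 0.87), with edgeR adjusted p-values of 0.960, 0.339 and 0.551. Among the 13 tumors left, the summed level was 2.53 to 24.5 CPM in 6 KO tumors and 2.83 to 34.8 CPM in 7 WT tumors, and the ranges overlapped. These sums compare tumors of unequal depth.

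DESeq2 with default settings called 6 of the 10 genes higher in KO, where it called 12.5% of 20078 genes in either direction and 7.76% as higher. These were Krt8 (log2 fold change 5.51, DESeq2 adjusted p = 0.00162), Krt19 (4.02, 0.0349), Epcam (2.66, 0.0463), Cdh1 (3.58, 0.0284), Cldn3 (5.86, 0.00466) and Cldn7 (5.08, 0.0331). By default DESeq2 replaces counts it takes as outlying in groups of this size. It had replaced the N25 lung count of all 10 genes, the Prince count of 9 and the Massa count of 2, Krt19 and Krt7. For Krt8 the count in Prince went from 3820 to 9 and that in N25 lung from 2041 to 12, while the count of 31 in Massa was kept. For Krt19 the Prince count of 227 was kept, while that of Massa went from 68 to 0 and that of N25 lung from 1921 to 5. With no replacement DESeq2 called 1 of the 10, Ehf (3.501, adjusted p = 0.0420), where it called 12.1% of all genes, and Krt8 was at 1.53 (adjusted p = 0.680). The 6 calls were therefore made on tables in which some of the 3 high tumors had been set low and another had not.

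**Figure D4:**
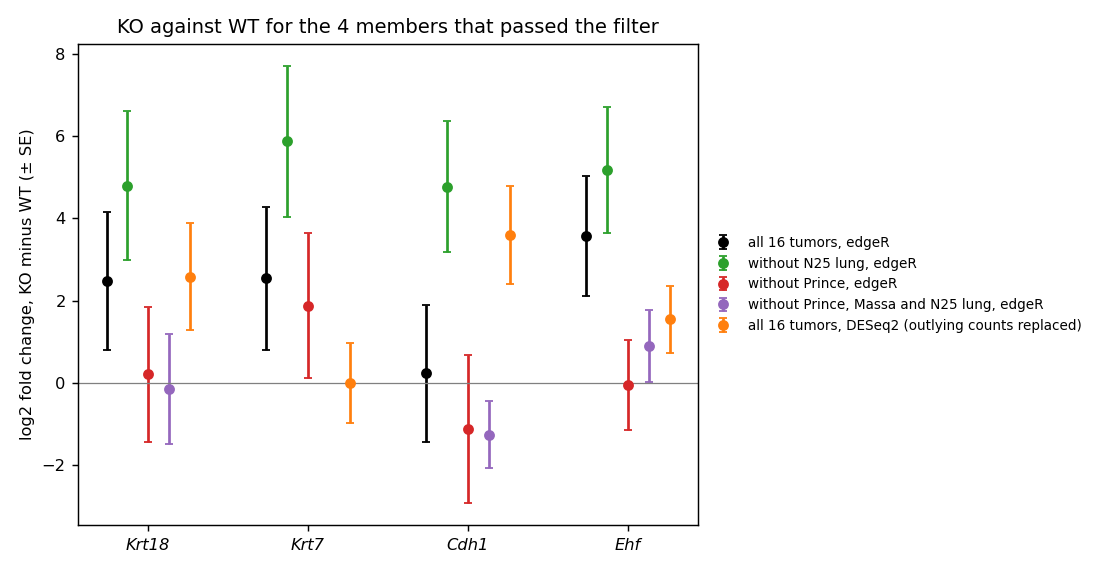
Log2 fold change, KO minus WT, with its standard error, for Krt18, Krt7, Cdh1 and Ehf under 5 settings. Leaving out N25 lung moves all 4 genes up, to 4.77 to 5.87, and leaving out Prince moves them down. Krt7 has no value without Prince, Massa and N25 lung because it did not pass the filter there.

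The body sites of the WT tumors allow a comparison within that genotype. The 10 genes summed to 983 CPM in the N25 sample labeled lung, whose nature is not settled, and to 2.83 to 34.8 CPM in the 7 other WT tumors. Among those, N215 right hind limb was highest, followed by N43 spine at 7.25, N42 left shoulder at 6.32, N43 pelvis at 5.01, N42 right pelvis at 4.42, N42 right femur at 4.20 and N42 left limb at 2.83 CPM. Within the single mouse N42, the 4 sites thus lay between 2.83 and 6.32 CPM. In these 4, Ehf ran from 0.455 CPM in the left limb to 5.08 CPM in the left shoulder, Cdh1 from 0.114 to 1.46 CPM and Krt7 from 0.0486 to 1.14 CPM.

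Spine and pelvis tumors (3) were compared with limb and shoulder tumors (4). Of the 10 genes, 3 were tested: Krt7 had a log2 fold change, spine and pelvis over limb and shoulder, of −2.15 (SE 1.55), Cdh1 of −1.09 (SE 1.12) and Ehf of 0.41 (SE 1.05), with edgeR adjusted p-values of 0.974, 0.974 and 0.994. Of these 0 passed, and of all 17131 genes tested 0 passed (0.0%). At an unadjusted p under 0.05 there were 641 genes (3.74%), and DESeq2 called 31 genes, none of them among the 10. N215, with the highest Krt7 and Cdh1 at these sites, is the only tumor of its mouse, so site and mouse cannot be told apart there. Without N215, Cdh1 turned to 0.52 and Krt7 was no longer tested, and Ehf ran from −0.32 to 1.34 with 1 tumor left out. These p-values ignore the mouse. With the mouse as a term the site difference rests on N42 alone, whose single pelvis tumor is assumed to vary like the others. The values were then −3.14 for Krt7 (SE 1.999), 0.23 for Cdh1 (SE 1.09) and 0.05 for Ehf (SE 1.44), and 0 of all genes passed in edgeR (375 at an unadjusted p under 0.05).

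Other epithelial genes from lists written by hand showed where the high levels extended. Of 14 regulators of epithelial genes, 9 were higher in each of Prince, Massa and N25 lung than in any of the other 13 tumors, as were 2.12% of all genes in the table. Esrp1, a splicing factor of epithelial cells, was at 249 CPM in Prince, 39.6 in N25 lung, 35.7 in Massa and at most 1.40 CPM elsewhere. Klf5, a factor of proliferating epithelium, was at 75.8 CPM in N25 lung, 71.4 in Massa and 37.9 in Prince, with at most 22.8 CPM elsewhere, in N215. In the KO to WT comparison 2 of the 14 were tested, 1 with an estimate above 0 and 1 below, and 0 passed.

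Of 26 other junction genes, 17 were higher in the 3 tumors than in any other, against 2.12% of all genes. Jup (plakoglobin) was at 389 CPM in Prince, 297 in Massa and 180 in N25 lung, against 17.6 to 155 CPM elsewhere. Dsp (desmoplakin), which ties keratins to desmosomes, was at 628 CPM in Prince, 100 in Massa and 93.7 in N25 lung, and reached 70.7 CPM in N215. Patj, a tight junction scaffold, was at 160, 66.9 and 85.3 CPM in the same order and at most 24.0 CPM elsewhere. Of the 11 tested, 10 had an estimate above 0 and 0 passed.

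Of 19 other membrane and secretory genes of epithelium, 12 were higher in the 3 tumors than in any other, against 2.12% of all genes. Spint2, a serine protease inhibitor, was at 744 CPM in Prince, 136 in N25 lung, 84.8 in Massa and at most 9.51 CPM elsewhere. Mal2, a protein of apical transport, had another order: 569 CPM in Massa, 200 in N25 lung and 49.0 in Prince, with at most 5.37 CPM elsewhere. Of 7 tested, 6 had an estimate above 0 and 0 passed. Of 9 keratins outside the members, 1, Krt80, was higher in the 3 tumors than in any other (183 CPM in Massa, 131 in Prince, 67.4 in N25 lung, at most 25.5 elsewhere). Krt14, a keratin of basal and myoepithelial cells, was at 62.5 CPM in Prince and 21.5 CPM in Grilka and at most 1.36 CPM in the other tumors.

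The 6 repressors of epithelial genes were not uniformly low in the high tumors. They were all tested, 2 with an estimate above 0 and 4 below, and 0 passed. They summed to 101 CPM in Prince, the lowest of the 16 tumors, but to 462 CPM in Massa and 325 CPM in N25 lung, inside the range of 273 to 862 CPM in the other 13. Zeb2 was at 57.3 CPM in Prince, 190 in Massa and 195 in N25 lung, against 142 to 547 CPM in the other 13. Zeb1 was at 25.8 CPM in Prince, 223 in Massa, the highest of all, and 109 in N25 lung. Twist1, a factor of mesenchymal cells, was lower in the 3 tumors (0 CPM in Massa, 1.74 in N25 lung, 4.15 in Prince) than in any of the other 13 (6.15 to 97.0 CPM). Since 1 count is worth 2.23 CPM in Massa, its 0 is not firmly below the lowest of these. Of 8 mesenchymal counterpart genes, all tested, 1 was lower in KO, where 2.15% of all genes were: S100a4, at 3.32 to 33.6 CPM in KO and 11.2 to 112 CPM in WT (log2 fold change −1.84, SE 0.47, edgeR adjusted p = 0.0372). Its call was lost when the mouse was taken into account: −1.49 (adjusted p = 0.473) with limma-voom and the mouse as a random effect, −1.41 (edgeR adjusted p = 0.599) with counts summed per mouse and −1.59 (edgeR adjusted p = 0.568) without N42. It was also lost with any of 8 single tumors left out: Montana, Oregon, both N43 tumors or any of the 4 from N42. Of the other 7 genes, 2 had an estimate above 0 and 5 below.

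Without Prince, Massa and N25 lung, 1 of the regulators was above 0 and 1 below, of 11 junction genes 8 and 3, of 6 membrane and secretory genes 6 and 0, of the repressors 2 and 4, and of the mesenchymal genes 2 and 6. In that fit 7.14% of all genes passed, 562 as higher in KO and 560 as lower. The share of all genes above 0 in that fit is not given, so these counts of signs have no background to be read against. Of these lists, 1 junction gene passed, Pkp2 (plakophilin 2, log2 fold change 2.10, SE 0.58, edgeR adjusted p = 0.0445). So did 2 mesenchymal genes, S100a4 (−1.72, SE 0.41, edgeR adjusted p = 0.0276) and Itga5 (−1.21, SE 0.32, edgeR adjusted p = 0.0393). Of the tissue lists, 1 salivary gland gene passed, Egf (4.605, SE 0.97, edgeR adjusted p = 0.0176), and 1 lung gene, Ager (−1.98, SE 0.55, edgeR adjusted p = 0.0449). Pkp2, Itga5 and Ager were named after their values were seen.

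The members also differed in how they followed each other below the 3 high tumors. Over all 16 tumors the 45 pairs of members had a median Spearman correlation of 0.57 (0.16 to 0.84). Over the other 13 tumors the median was 0.14 (−0.57 to 0.71). All points share library and depth within a tumor, and in the 13 tumors most values are a few counts.

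The genes outside the members whose levels were most like the mean of the 4 tested members, by Spearman correlation over 16 tumors, were Dmtn (0.87), Cbs (0.86), Gca (0.85), Gpr137c (0.84), Hscb (0.82), Aig1 (0.82), Pcp4l1 (0.81) and Rab15 (0.81). Over the 13 tumors without Prince, Massa and N25 lung the correlation of these genes with the same mean was 0.65 to 0.87. The genes were picked as the highest of all genes tested over tumors that include these 13. The choice itself therefore favors high values here. Likeness in rank did not mean likeness in level. Dmtn was highest in Zelda, at 73.8 CPM against 20.3 in Prince, and Hscb ran only from 2.10 to 6.15 CPM over the 16 tumors. Rab15 was at 291 CPM in Prince, 33.5 in Massa, 20.1 in N25 lung and at most 17.6 CPM in the other 13.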

How the data were processed

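The authors removed ribosomal RNA, sequenced 50 cycles from 1 end, aligned reads with Novoalign 2.08.01 to mm10 and Ensembl build 74 transcript models with up to 50 alignments per read, and kept the best. The authors deposited the raw counts per gene used here. Library strand is not given in the sources used here, so reads of Krt7, Krt8 and Cldn3 cannot be told apart from those of Gm671, Gm36026 and Wbscr25, which overlap them. Reads of Krt8 may also be shared with its pseudogene. Groups came from the labels.

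Counts were tested with edgeR 4.0.16 (R 4.3.3; TMM, filterByExpr with a minimum count of 10 and total of 15, glmQLFit, glmQLFTest, two-sided, Benjamini-Hochberg over 15413 genes tested of 25054, threshold 0.05, no covariate). Nothing says whether KO tumors came from separate mice beyond their names. Alternatives were DESeq2 1.42.0, limma 3.58.1 (voom, with statmod 1.5.0), other normalization, no filter, sums per mouse and tumors left out. Leaving out Prince and Massa together with N25 lung, DESeq2 without replacement, and the mouse as a term for the sites, were added after the data were seen. Simulated data with these depths and 100 genes changed at each size gave 57 calls at a log2 fold of 2 and 100 at 4 for KO against WT, and 1 and 85 for sites. The simulation gave every gene the same spread, had no mouse effect and changed only well-counted genes. These counts of calls therefore do not give the power for the members. Intervals are Clopper-Pearson, 95%, and like the floor of 3 counts cover counting error only. Python 3.11.15, pandas 2.3.3, scipy 1.17.1 and matplotlib 3.10.9 did the rest. Positions are from GENCODE vM21 (GRCm38).

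The members and all lists (salivary gland, lung, liver, kidney, keratinocyte, mesothelium, mammary, skeletal muscle, osteoblast, epithelial regulators, repressors, junction, membrane and secretory, other keratins, mesenchymal) were chosen with earlier results of these data known. Named genes are the members, the targeted genes, up to 3 genes of each list (those past the threshold, otherwise the most abundant), and the 8 genes most like the members. Some genes under this rule, and 1 sequence, are not reported here.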

Additional observations from a re-analysis of the deposited data

Results flagged for a closer look

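In each group of 8 tumors, the gap between an extreme tumor and its nearest neighbor was set against the range of the group, for the 10 genes, their sum in CPM and both genotypes. Of 22 groups, 20 had a gap above Dixon's 95% critical value. That value flags about 1 in 20 groups by chance only when values are normally distributed, and the CPM were not log-transformed. The flagged tumors, Prince, Massa and N25 lung, had also been picked as high from the same values. The 20 flags therefore describe these tumors and are not a test against chance. The groups are not independent, since the same tumors recur.

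Among KO tumors Prince stood apart for Krt8 (gap over range 0.782), Krt18 (0.756), Epcam (0.926), Cldn3 (0.687), Cldn4 (0.928), Cldn7 (0.817), Ehf (0.954) and the sum (0.595), and Massa stood apart for Krt19 (0.876). Among WT tumors N25 lung stood apart for all of them: Krt8 (0.996), Krt18 (0.804), Krt19 (0.995), Krt7 (0.927), Epcam (0.956), Cdh1 (0.977), Cldn3 (0.998), Cldn4 (0.993), Cldn7 (0.997), Ehf (0.883) and the sum (0.967). Krt7 and Cdh1 in KO were not flagged, since Prince and Massa were both high.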

How the results depend on the processing

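The count of members past the threshold, 0 in KO against WT, was 6 with DESeq2, 1 with DESeq2 and no replacement of outlying counts, and 0 in the 25 other alternatives, including each tumor left out in turn (0 to 0). In the comparison of WT sites it was 0 in all 11 alternatives run, of which the mouse as a term was added after the data were seen. The count over all genes, 618, was 2517 with DESeq2, 2566 with DESeq2 and no replacement, 17 with limma-voom and the mouse as a random effect, 10 with counts summed per mouse, 8 without the 4 tumors of N42, 1122 without Prince, Massa and N25 lung, and 252 (without N42 left shoulder) to 1348 (without Zelda) with 1 tumor left out.

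Krt18 turned to −0.15 without Prince, Massa and N25 lung and ranged from 0.21 to 4.79 with 1 tumor left out. Krt7 was −0.0034 with DESeq2 and ranged from 1.59 to 5.87 with 1 tumor left out. Cdh1 was 3.58 with DESeq2 (past the threshold), −0.79 with limma-voom, −0.77 summed per mouse, −0.77 without N42, −0.087 without the 2 shallowest libraries, −1.26 without Prince, Massa and N25 lung, −0.25 without Massa, and −1.12 (without Prince) to 4.77 (without N25 lung) with 1 tumor left out. Ehf was −0.045 without Prince, the lowest of a range up to 5.18 without N25 lung, and 3.501 and past the threshold in DESeq2 with no replacement. Beyond fewer samples and, in DESeq2, the replaced counts, the cause was not tested.

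For the sites, Cdh1 turned to 0.52 without N215, in a range from −1.53, and to 0.23 with the mouse as a term. Ehf ran from −0.32 (without N43 spine) to 1.34. No paired analysis was possible because no mouse gave tumors to both genotypes, and replicate numbers only follow the order of the samples. The N42 tumors alone gave values and no test for the sites. Depth limits the low values: 3 counts are worth 6.69 CPM in Massa, and 4.03 in Grilka.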
